A study of Mus musculus with 6 samples.

Results

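The 10 genes described here encode CXC chemokines and receptors that bind them. They are the ligand genes *Cxcl1*, *Cxcl2*, *Cxcl3*, *Cxcl5*, *Cxcl10*, *Cxcl12*, *Cxcl13* and *Cxcl14* and the receptor genes *Cxcr4* and *Ackr3*, taken by symbol from a count table of 56748 gene identifiers. They were listed with their counts in both groups already known. Their differences between the groups are therefore given as a description, without a test of the family.

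RNA-Seq was performed on ureters of wildtype NMRI mouse embryos that were dissected at E12.5 and kept in culture for 18 h. In the LiCl group, 3 samples received LiCl at 15 mM. Lithium inhibits the kinase GSK3 and thereby activates canonical WNT signaling. In the control group, 3 samples received water. All samples shared the strain, the stage, the culture period and the absence of any mutant allele. LiCl was given to the whole explant, lithium has other enzyme targets than GSK3, and no other salt served as a control. The sources used here do not say whether replicates came from separate litters or pools, so p-values measure only the spread between these samples, which may in part be technical.

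Chemokines are small secreted proteins that guide migrating cells through G protein-coupled receptors. The CXC ligands with a glutamate-leucine-arginine motif before their first cysteines (ELR ligands), encoded among others by *Cxcl1*, *Cxcl2*, *Cxcl3* and *Cxcl5*, attract neutrophils through CXCR2. CXCL12 acts through CXCR4 on many embryonic cell types and is bound and internalized by ACKR3, a scavenging receptor that does not couple to G proteins. In the developing urinary tract, CXCL12 is known as a product of stromal and mesenchymal cells, and CXCR4 is known from vessels and progenitor cells of the kidney.

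Total counts per sample were between 28473436 and 31266945. Values per sample are given as raw counts and as CPM, counts relative to the TMM-scaled library size, in which 1 count was worth from 0.0322 to 0.0358 CPM. Calls were made with edgeR's quasi-likelihood test at an adjusted p below 0.05 (Benjamini-Hochberg over 18188 tested genes) together with a log2 fold change beyond 1 in either direction. Libraries stood apart in several respects. Control replicate 3 was highest for 10 of 12 macrophage and 7 of 10 endothelial markers, and control replicate 1 for 8 of 10 epithelial markers. Of 20 interferon-stimulated genes, 19 were highest in control replicate 2, and skeletal muscle markers summed to 55.3 and 104 CPM in LiCl replicates 1 and 3 against 19.6 CPM in LiCl replicate 2 and 23.4 to 24.8 CPM in the controls. Markers of the labelled tissue were present in every sample. For instance, *Tbx18* of the ureteric mesenchyme had a mean of 368 CPM in the control and 246 CPM with LiCl, and *Cdh1* of the epithelium had 289 and 146 CPM. In such bulk samples, fewer cells of a type and less RNA per cell cannot be told apart.

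The 4 ELR ligand genes among the 10 lie in a cluster with other genes on chromosome 5. Stretches before the starts are shown because *Cxcl1*, *Cxcl2* and *Cxcl3* carry the same run of letters there. RefSeq promoter windows of GRCm38.p6 (from 250 bases before to 50 bases after the start) were found for 9 of the 10 genes, without *Cxcl5*. They were searched on both strands for the consensus of the transcription factor NF-kB. The letters GGGAATTTCCC matched on both strands, as overlapping matches, 71 bases before the start of *Cxcl1*, 97 bases before that of *Cxcl2* and 73 bases before that of *Cxcl3*. The 100 bases before each start are given 5′ to 3′ on the plus strand, at chr5:90891145-90891244, chr5:90903799-90903898 and chr5:90786001-90786100, with the match in capitals.
Cxcl1: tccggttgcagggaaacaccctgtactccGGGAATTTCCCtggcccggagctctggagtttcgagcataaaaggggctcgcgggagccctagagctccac
Cxcl2: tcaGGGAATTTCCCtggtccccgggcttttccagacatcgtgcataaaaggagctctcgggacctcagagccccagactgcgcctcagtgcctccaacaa
Cxcl3: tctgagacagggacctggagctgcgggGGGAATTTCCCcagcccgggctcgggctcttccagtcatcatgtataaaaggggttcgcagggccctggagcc

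The window of *Cxcl10*, a gene known to be induced by interferon, also held the NF-kB consensus, with matches 159 and 103 bases before the start. It held in addition the core of the interferon-response element (GAAA, any pair of bases, GAAA), 213 bases before the start. Its bases from 220 to 91 before the start, at chr5:92348980-92349109 on the minus strand, are shown with all of these matches in capitals.
Cxcl10: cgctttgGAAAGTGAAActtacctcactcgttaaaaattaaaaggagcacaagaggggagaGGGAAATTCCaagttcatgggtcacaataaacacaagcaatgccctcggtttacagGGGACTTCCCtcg

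The NF-kB consensus was present in 4 of the 9 windows, against 4.51% of all 32851 windows of the same length. Those of *Cxcl1*, *Cxcl2* and *Cxcl3* hold the same letters, and these genes lie in the same cluster. All 4 genes are known NF-kB targets, so no enrichment is read from this share. The interferon core was present in 2 of the 9, those of *Cxcl10* and *Cxcl14*, against 3.44% of all windows. The site of TCF/LEF factors, which act with β-Catenin (CTTTG and then A or T at both next bases), was found in 1 of the 9 windows, that of *Cxcl12*, 163 bases before the start and on the opposite strand, against 16.9% of all windows. The bases from 200 to 110 before the start of *Cxcl12*, at chr6:117168335-117168425 on the plus strand, are shown with this match in capitals. A match describes letters and does not show binding.
Cxcl12: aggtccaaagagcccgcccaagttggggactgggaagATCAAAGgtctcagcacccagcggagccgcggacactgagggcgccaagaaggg

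Levels of different genes were compared as FPKM, which accounts for gene length. In the control, *Cxcl12* had the highest level of the 10 genes, 87.3 to 91.8 FPKM, followed by *Ackr3* with 42.3 to 47.4, *Cxcr4* with 16.7 to 19.8 and *Cxcl14* with 9.35 to 10.6 FPKM. *Cxcl13* lay between 1.49 and 1.91 FPKM. These 5 genes did not overlap with their neighbours in the order. *Cxcl5*, *Cxcl10*, *Cxcl1*, *Cxcl2* and *Cxcl3* followed with means of 0.381, 0.247, 0.0932, 0.0479 and 0.0216 FPKM, and each of them overlapped with the next over the 3 samples.

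With LiCl, the 4 genes at the top kept their order, with mean levels of 34.9 FPKM for *Cxcl12*, 31.5 for *Ackr3*, 20.8 for *Cxcr4* and 8.59 for *Cxcl14*. *Cxcl3*, lowest in the control, came next with 1.10 to 1.22 FPKM, and *Cxcl2* followed with 0.363 to 0.413 FPKM. *Cxcl5*, *Cxcl1*, *Cxcl13* and *Cxcl10* closed the order with means of 0.295, 0.259, 0.187 and 0.122 FPKM and overlapping samples. *Cxcl12* made up 86.9% to 88.7% of the summed FPKM of the 8 ligand genes in the control samples and 72.8% to 78.2% in the LiCl samples.

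**Figure D1:**
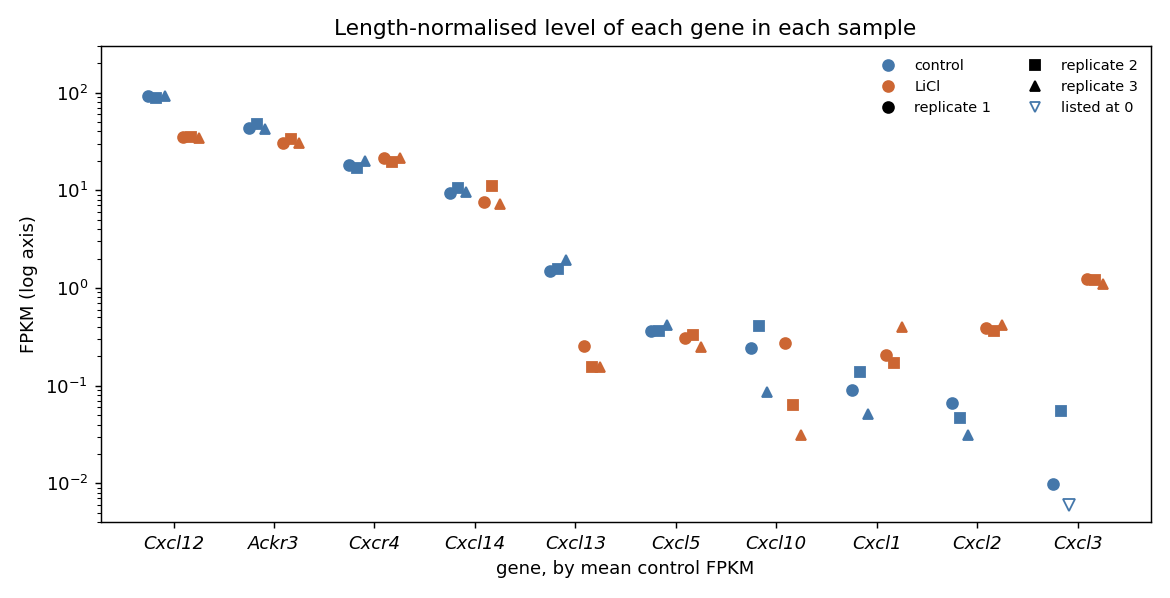
Level of each of the 10 genes in each sample in FPKM on a log axis, with genes ordered by their mean control level, colours for the groups, symbols for the replicates and an open triangle for a value listed at 0. *Cxcl12* is highest in both groups (control mean 90.1, LiCl mean 34.9 FPKM), while *Cxcl3* moves from the last place (0.0216 FPKM) to the fifth (1.18 FPKM).

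Of the 9 genes that passed the filter on low counts, 2 were called higher with LiCl (*Cxcl2* and *Cxcl3*) and 2 lower (*Cxcl12* and *Cxcl13*). Over all tested genes, 2.74% were called higher and 4.59% lower. At an adjusted p under 0.05 without a minimum fold change, *Ackr3* joined the lower genes, giving 2 higher and 3 lower, where 21.1% and 22.4% of all tested genes passed. Every LiCl sample lay above every control for 2 of the 9 genes and below every control for 4 (*Cxcl5*, *Cxcl12*, *Cxcl13* and *Ackr3*), which held for 26.4% and 27.8% of all tested genes. The median log2 fold change of the 9 genes was -0.38 and that of all tested genes -0.01. *Cxcl2* and *Cxcl3* passed the filter through their LiCl samples alone, and *Cxcl13* through its control samples alone. That these genes were tested thus depended on the difference itself. For this reason, and since the genes were selected on this contrast, nothing is read from these counts.

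**Figure D2:**
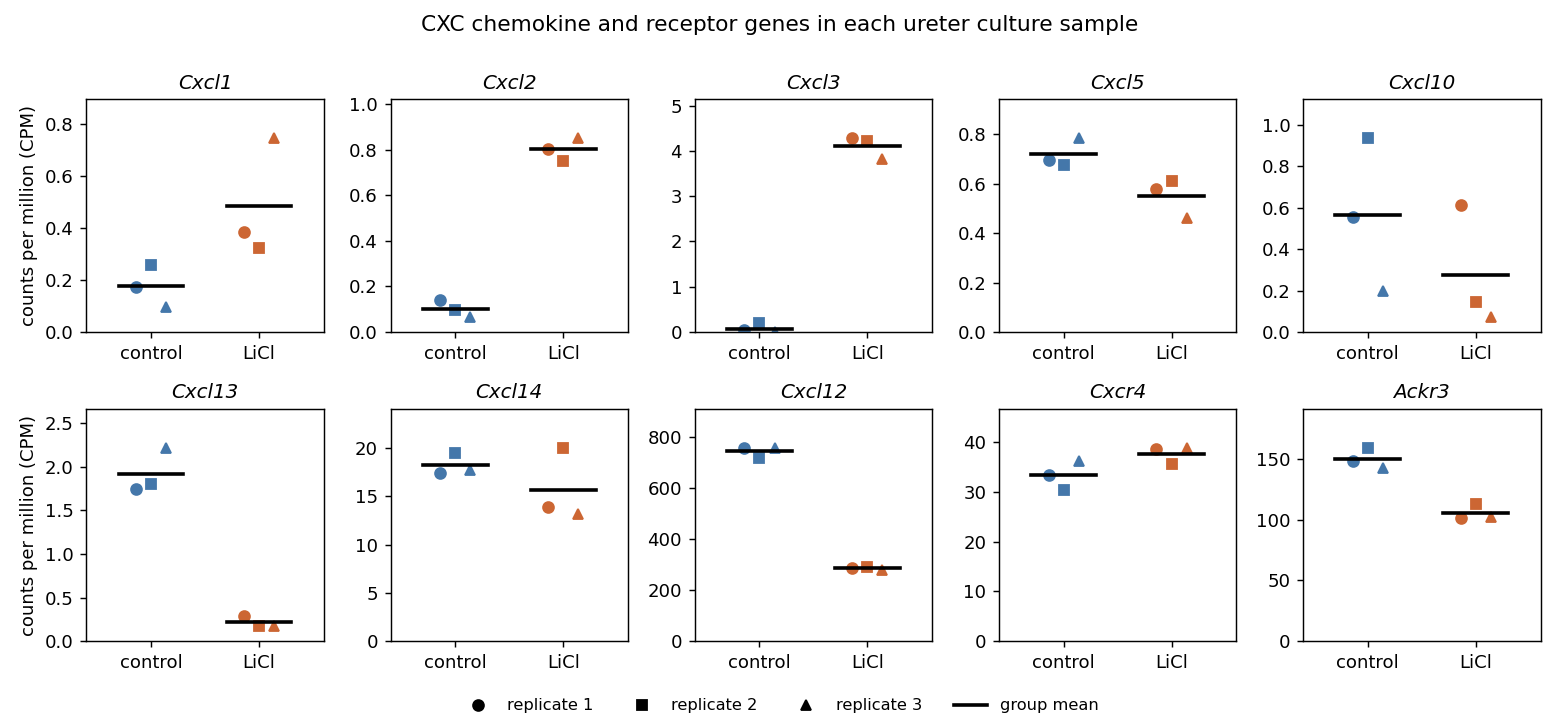
CPM of each of the 10 genes in each control and LiCl sample on linear axes from 0, with symbols for the replicates and lines for the group means. The groups are far apart for *Cxcl3* (means 0.0760 and 4.11 CPM), *Cxcl2*, *Cxcl13* and *Cxcl12*, and they overlap for *Cxcl10*, *Cxcl14* and *Cxcr4*.

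Among the ELR ligand genes, *Cxcl3* had 1, 6 and 0 counts in control replicates 1 to 3 and 133, 118 and 108 counts in LiCl replicates 1 to 3. All LiCl samples were thus far above all controls, at 3.83 to 4.28 CPM against 0 to 0.193 CPM. The fitted log2 fold change was 5.66 ± 0.47 (SE, n = 3 per group). The summed counts, scaled by library size, differed 53.2-fold, with a 95% interval of 25.6 to 133 that covers counting error only. Because the controls held 7 counts in all, the fitted value moved with the control samples used and reached 7.61 without control replicate 2.

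*Cxcl2* had 4, 3 and 2 counts in the control samples and 25, 21 and 24 counts with LiCl. The groups did not overlap, and the spread within each was a few counts. The log2 fold change was 2.96 ± 0.37 (SE, n = 3 per group), and the scaled ratio of the summed counts was 8.07 (95% counting interval 4.02 to 18.4). *Cxcl2* and *Cxcl3* are close relatives. Their transcripts in GENCODE vM21 share an identical stretch of 157 bases, and 69 of the 2259 different 100-base stretches of *Cxcl2* also occur in *Cxcl3*. How reads that match both genes were counted is not given in the sources used here, so a part of the counts of each is uncertain. The other 8 genes had no 100-base stretch in common with another gene.

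*Cxcl1* had 5, 8 and 3 counts in the control samples and 12, 9 and 21 with LiCl. Every LiCl sample was above every control, although LiCl replicate 2 exceeded control replicate 2 by 1 count. This gene did not pass the filter on low counts. The scaled ratio of its summed counts, 42 against 16, was 2.72 (95% counting interval 1.50 to 5.19). Tested without the filter, its log2 fold change was 1.46 ± 0.52 (SE, n = 3 per group) and was called, which made 3 genes called higher, and with DESeq2 it was 1.47 ± 0.74 and was not called.

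*Cxcl5* had 20, 21 and 24 counts in the control samples and 18, 17 and 13 with LiCl. All LiCl samples were below all controls, by as little as 2 counts, and the log2 fold change of -0.38 ± 0.27 (SE, n = 3 per group) was not called. The scaled ratio of LiCl over control was 0.766, with a 95% counting interval of 0.516 to 1.13. In summed FPKM, the 4 ELR ligand genes went from 0.499 to 0.599 in the control to 2.07 to 2.16 with LiCl. *Cxcl5* contributed 60.3% to 83.4% of this sum in the controls and 11.5% to 15.8% with LiCl. *Cxcl3* contributed from 0 to 9.17% and from 50.9% to 58.3%. The sum of these 4 genes was thus mostly *Cxcl5* in each control and mostly *Cxcl3* in each LiCl sample. This sum does not stand for all ELR ligands, which are encoded by further genes too. *Cxcl15* and *Ppbp*, CXC ligand genes of the same cluster, were not part of it. Their mean levels were 1.83 and 0.411 FPKM in the control and 2.39 and 1.02 FPKM with LiCl, so that *Cxcl15* alone lay above the sum in both groups.

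Along chromosome 5 the order of genes in the RefSeq annotation of GRCm38.p6 is *Rassf6*, *Cxcl5*, *Ppbp*, *Pf4*, *Cxcl3*, *Cxcl15*, *Cxcl1*, *Cxcl2*, *Mthfd2l* and *Epgn*. *Pf4* and *Ppbp*, which encode CXC ligands stored in platelets, are the neighbours between *Cxcl5* and *Cxcl3*. *Pf4* rose from 16, 29 and 32 counts to 206, 147 and 225 counts, a log2 fold change of 2.96 (SE 0.25, edgeR adjusted p = 2.4e-05). *Ppbp* rose from 8, 14 and 19 counts to 31, 31 and 34 (log2 fold change 1.28, SE 0.31, edgeR adjusted p = 0.0095). *Cxcl15*, between *Cxcl3* and *Cxcl1*, had 355 counts in the control samples and 441 with LiCl and was not called (log2 fold change 0.37, SE 0.18, edgeR adjusted p = 0.13). The genes that flank the cluster were not called either, with log2 fold changes of -0.33 for *Rassf6* (edgeR adjusted p = 0.19) and 0.39 for *Mthfd2l*, which passed the test without a minimum fold change (edgeR adjusted p = 0.00099). Genes that were not called thus lay at the edges of the cluster and also within it.

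**Figure D3:**
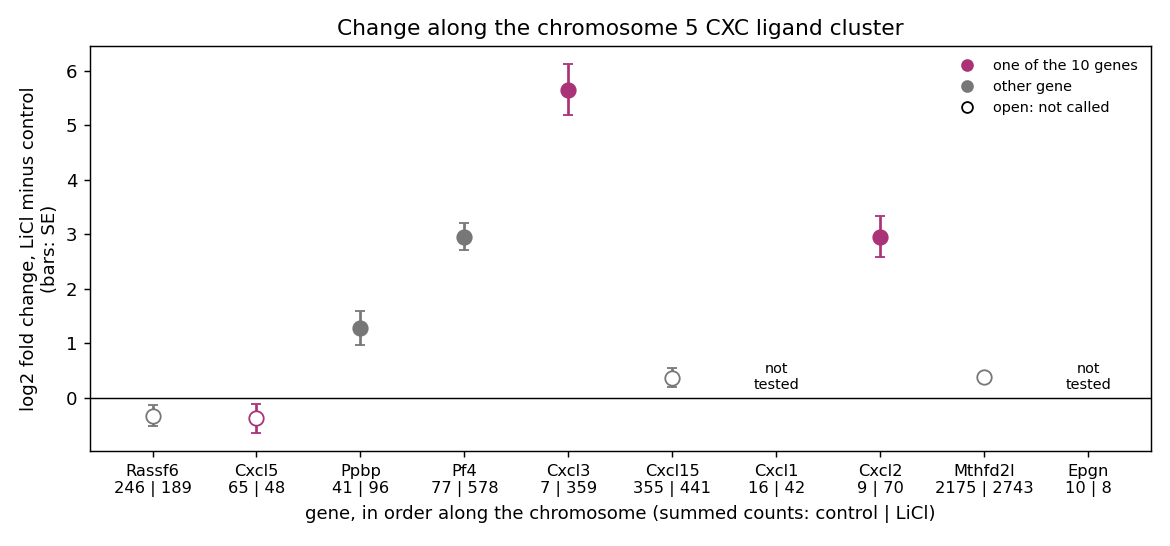
Log2 fold change (LiCl minus control, bars are SE) of the genes of the chromosome 5 cluster in their order along the chromosome, with summed counts of 3 control and 3 LiCl samples under each name and filled points for called genes. *Cxcl3* stands highest at 5.66, *Pf4* and *Cxcl2* are both at 2.96, and *Cxcl15* between them is at 0.37.

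*Pf4* is also a gene of megakaryocytes and of some macrophages. A list of 10 platelet and megakaryocyte markers, chosen after the values of *Pf4* were seen, summed to 14.4 to 18.0 CPM in the controls and 12.6 to 13.9 CPM with LiCl. Of its 4 tested genes, edgeR called 0 higher (0 also by DESeq2 and at an unadjusted p under 0.05) and 1 lower, the platelet receptor gene *Clec1b* (log2 fold change -1.54, edgeR adjusted p = 0.011). *Gp1bb* was at 0 in every sample but LiCl replicate 2, which held 1 count. The part of these cells in the counts of *Pf4* and *Ppbp* was not tested.

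The transcript of CXCR2, the receptor named above for the ELR ligands, was not detected. *Cxcr2* had 0 counts in all 6 samples, which allows up to 0.0965 to 0.107 CPM per sample (3 counts). *Cxcr1* had 3, 1 and 4 counts in the control samples and 1, 7 and 1 with LiCl. Markers of neutrophils, the main cells that carry CXCR2, were also near 0. Of 10 such genes 1 was tested, and their summed level was 1.51 to 1.70 CPM in the controls and 0.644 to 1.68 CPM with LiCl. *Ly6g* had 1 count in control replicate 1 and 0 elsewhere. The tested gene, the cytokine receptor gene *Csf3r*, was called lower (log2 fold change -1.27, edgeR adjusted p = 0.023), and this call was lost (0 genes) without control replicate 3, LiCl replicate 1 or LiCl replicate 2.

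*Cxcl12*, the most abundant ligand gene, had 21824, 22283 and 23220 counts in the control samples and 8897, 8096 and 7879 counts with LiCl. In CPM this was 759, 718 and 758 against 286, 290 and 279. The samples of a group lay close together and the groups were far apart. *Cxcl12* was 2.61-fold lower with LiCl, a log2 fold change of -1.39 ± 0.04 (SE, n = 3 per group). This value was -1.35 without both LiCl replicates with high skeletal muscle markers.

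Of 12 markers of the ureteric mesenchyme, 1 was called lower, the matrix proteoglycan gene *Lum* at -1.38 (edgeR adjusted p = 0.00015), and 0 were called higher. Without a minimum fold change 9 were lower and 2 higher, as at an unadjusted p under 0.05. Over all tested genes, 22.4% were lower and 21.1% higher without this minimum. These shares also stand beside such counts of the other lists. Their summed level was 6627 to 7434 CPM in the controls and 4845 to 5294 CPM with LiCl. Of 10 endothelial markers, 1 was called lower, the angiopoietin receptor gene *Tek* (log2 fold change -1.15, edgeR adjusted p = 0.00061), with a sum of 604 to 763 CPM against 556 to 684 CPM. Without LiCl replicate 1, 0 endothelial markers were called. Of 5 pericyte markers 0 were called by edgeR or DESeq2. At an adjusted p under 0.05 without a minimum fold change 1 was higher and 2 lower, as at an unadjusted p under 0.05. *Rgs5* and *Abcc9* had log2 fold changes of -0.72 and -0.65, and *Notch3* and *Cspg4* 0.19 and 0.11. Their sum was 548 to 569 CPM in the controls and 467 to 519 CPM with LiCl. The part of these cell types in the lower *Cxcl12* was not tested.

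Of the receptor genes, *Cxcr4* had 959, 943 and 1109 counts in the control samples and 1196, 991 and 1096 with LiCl. At 33.4, 30.4 and 36.2 CPM against 38.5, 35.5 and 38.9 CPM the groups overlapped, and the log2 fold change of 0.18 ± 0.07 (SE, n = 3 per group) was not called. *Ackr3* had 4255, 4949 and 4377 counts in the control samples and 3146, 3148 and 2891 with LiCl. In CPM the controls had 148, 159 and 143 and the LiCl samples, all lower, at most 113, and the log2 fold change of -0.51 ± 0.06 (SE, n = 3 per group) stayed within the fold change threshold.

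Ratios of ligand to receptor transcripts were computed in each sample. The ratio of *Cxcl12* to *Cxcr4* in FPKM was 5.03, 5.23 and 4.63 in the controls and 1.65, 1.81 and 1.59 with LiCl. The ratio of *Ackr3* to *Cxcr4* was 2.13 to 2.83 and 1.42 to 1.72, and that of *Cxcl12* to *Ackr3* 1.84 to 2.17 and 1.05 to 1.16. The groups overlapped in none of these 3 ratios. Since the ratios restate the levels given above, for genes listed with their counts known, nothing further is read from this separation.

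Further genes of the CXCL12 axis comprised 15 genes for G proteins, arrestins, receptor kinases and other partners. All were tested, and 0 were called in either direction by edgeR's quasi-likelihood test and by DESeq2. At an adjusted p under 0.05 alone 3 were higher and 3 lower, where 21.1% and 22.4% of all tested genes passed. With an unadjusted p under 0.05 it was 3 and 4. The receptor kinase gene *Grk3* had a log2 fold change of -0.57 (SE 0.08, edgeR adjusted p = 0.00053) and the arrestin gene *Arrb1* one of -0.37 (SE 0.05, edgeR adjusted p = 0.00028). At the other end, *Hmgb1*, whose product forms a complex with CXCL12, had 0.23 (edgeR adjusted p = 0.0076) and *Rgs16*, a regulator of G protein signaling, 0.14 (edgeR adjusted p = 0.25). The summed level of the 15 genes was 1466 to 1518 CPM in the controls and 1400 to 1422 CPM with LiCl.

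*Cxcl13*, which encodes the ligand of CXCR5 that organizes B cell follicles, had 50, 56 and 68 counts in the control samples and 9, 5 and 5 with LiCl. The lowest control had more than 5 times the counts of the highest LiCl sample. The log2 fold change was -3.12 ± 0.29 (SE, n = 3 per group), and the scaled summed counts were 8.83-fold higher in the control (95% counting interval 5.49 to 15.0). Its receptor gene *Cxcr5* had 1, 0 and 0 counts in the control samples and 0, 0 and 5 with LiCl. Most markers of lymphocytes were near 0 as well, with *Cd3e* and *Ms4a1* at 0 in all samples. Of 6 markers 1 was tested, *Cd79a*, which was not called. It had 23, 21 and 22 counts in the control samples and 16, 17 and 14 with LiCl. The 6 markers summed to 0.805 to 0.939 CPM in the controls and 0.497 to 0.609 CPM with LiCl, mostly from *Cd79a*.

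*Cxcl14*, an epithelial and stromal chemokine, had 500, 605 and 544 counts in the control samples and 431, 560 and 370 with LiCl. LiCl replicate 2, at 20.0 CPM, was above all controls (17.4 to 19.5 CPM), while LiCl replicates 1 and 3, at 13.9 and 13.1 CPM, were below them. The log2 fold change of -0.22 ± 0.15 (SE, n = 3 per group) was not called. It was -0.43 without LiCl replicate 2, -0.13 without LiCl replicate 1, -0.10 without LiCl replicate 3 and 0.15 without both of the latter, the samples with high skeletal muscle markers. Of 10 markers of the ureteric epithelium, 1 was called lower, the keratin gene *Krt19* at -1.20 (edgeR adjusted p = 7.8e-05). Without a minimum fold change 8 were lower and 1, *Epcam*, was higher (log2 fold change 0.37, edgeR adjusted p = 0.00067). Their sum was 1291 to 1614 CPM in the controls and 972 to 1016 CPM with LiCl. The part of the epithelium in the level of *Cxcl14* was not tested.

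*Cxcl10*, which encodes a ligand of CXCR3, had 16, 29 and 6 counts in the control samples and 19, 4 and 2 with LiCl. The groups overlapped broadly, and LiCl replicate 1 lay above 2 of the controls. The log2 fold change of -0.98 ± 0.72 (SE, n = 3 per group) was not called, with the largest standard error of the 9 tested genes. It was -0.39 without control replicate 2, -0.54 without LiCl replicate 3 and -2.35 without LiCl replicate 1, where it was called. *Cxcr3* had 5, 2 and 1 counts in the control samples and 0 in each LiCl sample.

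*Cxcl10* was highest in control replicate 2, at 0.934 CPM, the same sample in which 19 of 20 interferon-stimulated genes were highest. These 20 genes summed to 181 CPM there, against 130 and 125 CPM in control replicates 1 and 3 and 111 to 118 CPM with LiCl. The antiviral gene *Ifit1*, named after its values were seen, had 153 counts in control replicate 2 and 2 to 21 in the other samples. Of the 18 tested genes, edgeR called 0 higher (0 also by DESeq2 and at an unadjusted p under 0.05) and 3 lower, the antiviral genes *Oasl2*, *Rsad2* and *Gbp2* with log2 fold changes of -2.08, -1.49 and -1.30 (edgeR adjusted p = 0.019, 0.0026 and 0.011). Without control replicate 2, 1 gene was called lower (*Rsad2*) and 1 higher (*Ifi44*). The part of this sample's interferon genes in the level of *Cxcl10* was not tested.

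**Figure D4:**
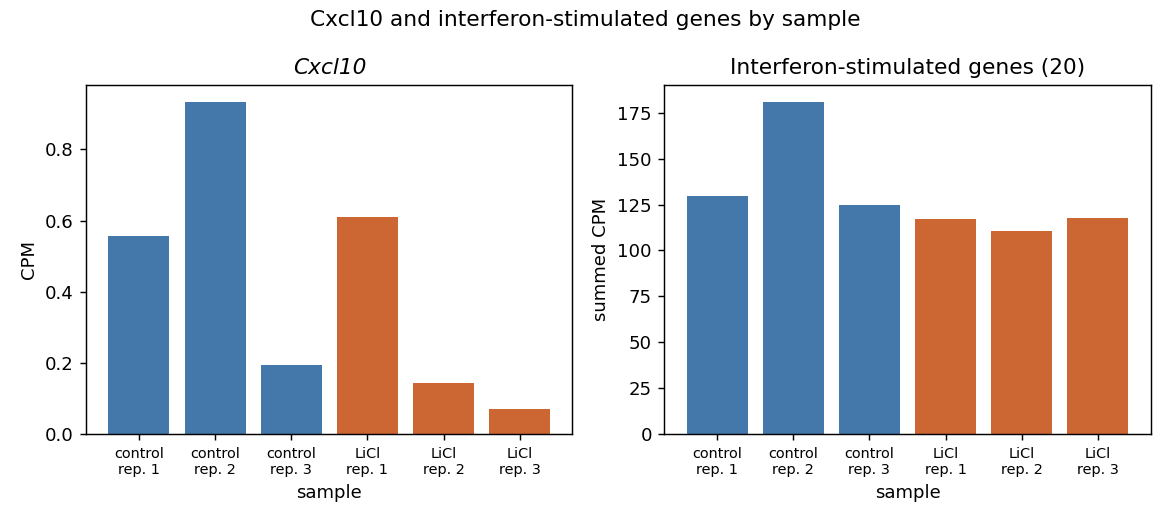
CPM of *Cxcl10* (left) and summed CPM of 20 interferon-stimulated genes (right) in each of the 6 samples, as bars from 0. Control replicate 2 is highest in both, at 0.934 CPM and 181 CPM, while LiCl replicate 1 is high for *Cxcl10* (0.611 CPM) and not for the interferon-stimulated genes (117 CPM).

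Compared with the rest of the chemokine system, 12 other genes of CXC ligands and receptors included 4 tested genes, of which *Pf4* and *Ppbp* were called higher and 0 lower. Of 39 genes for CC, CX3C and XC ligands and receptors, 20 were tested, and edgeR called 0 higher (0 also at an unadjusted p under 0.05) and 4 lower. Over both lists this was 2 higher and 4 lower of 24 tested genes. The 20 tested genes had a median log2 fold change of -0.21, against -0.01 for all tested genes.

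*Ccl11*, the gene of the eosinophil attractant eotaxin, had 33, 20 and 39 counts in the control samples and 5, 0 and 3 with LiCl (log2 fold change -3.42, SE 0.58, edgeR adjusted p = 0.0014). *Cx3cr1*, a receptor gene of macrophages, had 405, 547 and 762 counts in the control samples and 178, 211 and 302 in the LiCl samples (log2 fold change -1.24, edgeR adjusted p = 0.0032), and lost its call without control replicate 3, its highest sample, which left 2 genes called lower. *Ccr10* was called at -1.15 (edgeR adjusted p = 0.036) and lost its call when any sample other than LiCl replicate 3 was left out. Of 12 macrophage markers, 1 was called lower (*Fcgr1*, a receptor for antibodies, at -2.56, edgeR adjusted p = 0.00025). Without a minimum fold change 7 were lower and 1, *Adgre1*, was higher. Their sum was 91.1 to 144 CPM in the controls, highest in replicate 3, and 79.0 to 104 CPM with LiCl. The part of macrophages in the level of *Cx3cr1* was not tested.

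**Figure D5:**
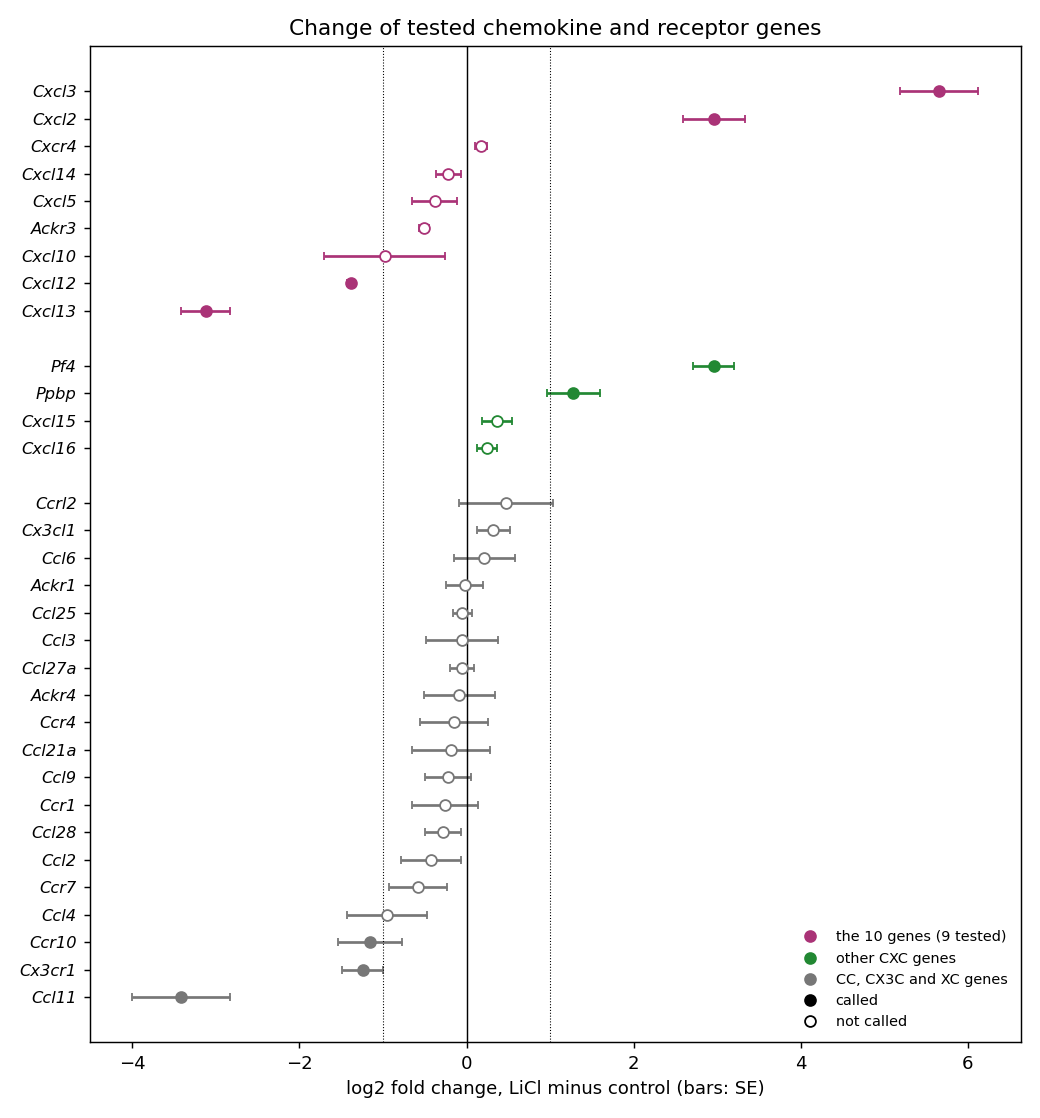
Log2 fold change (LiCl minus control, bars are SE) of tested genes among the 10 genes, among other CXC genes and among CC, CX3C and XC genes (1 of the called ones left out), with filled points for called genes and dotted lines at -1 and 1. *Cxcl3* (5.66) is at one end and *Ccl11* (-3.42) and *Cxcl13* (-3.12) are at the other.

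Because *Cxcl1*, *Cxcl2*, *Cxcl3* and *Cxcl10* are known as NF-kB targets, 24 other targets and inflammatory genes were examined. Of the 18 tested, 0 were called higher by edgeR or DESeq2 (2 at an unadjusted p under 0.05) and 2 lower, *Il33*, the gene of a cytokine of barrier and stromal cells (log2 fold change -2.20, edgeR adjusted p = 3.2e-07), and *Vcam1*, the gene of a vascular and mesenchymal adhesion molecule (-1.21, edgeR adjusted p = 3.4e-05). Without control replicate 1, *Ptgs2* was called higher, and without control replicate 2, *Saa3* was. Without a minimum fold change 4 were lower and 2 higher, *Nfkbia* (log2 fold change 0.31, edgeR adjusted p = 0.0041) and *Icam1* (0.57, edgeR adjusted p = 0.022). At the median of the list, the log2 fold change was -0.08. The summed level of the list was 274 to 286 CPM in the controls and 225 to 236 CPM with LiCl. Of kidney mesenchyme markers, 1 of 8 was called lower (*Cited1*, a transcriptional regulator of nephron progenitors, at -1.29, edgeR adjusted p = 0.00048), and their sum was 245 to 247 CPM in the controls and 208 to 214 CPM with LiCl.

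The genes whose pattern over the 6 samples was nearest to that of *Cxcl3* (the smallest distance of centred log2 CPM among 15448 genes whose mean reached 1 CPM) were *Tppp*, a tubulin-binding protein gene, *Tnxb*, a tenascin gene, and *Npffr1*, a neuropeptide receptor gene. Their distances were 1.42, 1.77 and 2.15 on the log2 scale and their correlations with *Cxcl3* 0.976, 0.968 and 0.956. Nearest to *Cxcl13* were *Gm45170*, *Akr1c19*, a member of the aldo-keto reductase family, and *Fabp4*, a fatty acid-binding protein gene, with distances of 0.46, 0.57 and 0.65 and correlations of 0.996, 0.988 and 0.983. With 6 samples in 2 groups, such values are mostly set by the difference between the groups.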

How the data were processed

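The authors deposited raw counts per gene for 6 samples, made from stranded, poly-A selected, paired-end reads. The methods name HISAT2 and featureCounts on GRCm39, whereas the submitters' processing notes list fastp 0.23, STAR 2.7, featureCounts 2.0 and DESeq2 1.40. The strand setting, the handling of multi-mapping reads and the annotation release are not given in the sources used here, so genes that overlap others are uncertain. The labels list a medium without serum; the methods name serum in general and leave it out for cultures used for microarrays and RT-qPCR. FPKM values were deposited for each sample as well. In all 13480 genes with over 50 counts in every sample, FPKM equalled counts divided by DESeq2 size factors and a gene length within 0.1%.

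Symbols came from GENCODE vM21 (GRCm38; 52073 of 56748 identifiers), promoter sequences and gene order from RefSeq GRCm38.p6. Because the build differs, coordinates refer to the promoter sequences alone. The test on the counts was that of edgeR (version 4.0.16, R version 4.3.3), a quasi-likelihood F test after filterByExpr and TMM scaling, with p-values adjusted by Benjamini-Hochberg over 18188 genes. TMM factors were 0.98 to 1.03. SE was derived from the log2 fold change and the F statistic. Intervals of count ratios are exact conditional binomial ones. Thresholds of calls are those the methods give for DESeq2.

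The 10 genes and all lists were chosen with earlier results of these data known. Named were the 10 genes, the called genes of each list or, where none was called, up to 2 with the highest and 2 with the lowest log2 fold change at a mean of at least 1 CPM, and the 3 nearest genes of the highest and the lowest of the 10. *Tbx18*, *Cdh1*, *Ifit1*, *Epcam*, *Adgre1*, *Nfkbia*, *Icam1* and genes named for a level at or near 0 were chosen after their values were seen. Of the other chemokine and receptor genes, 1 called gene is counted but not reported here by name. Skeletal muscle markers (9 of 10 tested, 6 called higher) served to describe the libraries. No pair of samples within a group agreed within sampling noise (chi-square over degrees of freedom of 5.81 to 14.5).

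Alternatives were DESeq2 1.42.0, scaling by RLE or by library size alone, testing unfiltered genes or those with 10 or more counts in each sample, a replicate block, each replicate left out, LiCl replicates 1 and 3 left out together, no fold change minimum, and limma 3.58.1 on log2(FPKM + 1) and log2(FPKM + 0.1) at a mean FPKM of at least 0.5, or on log2(FPKM + 1) unfiltered. On simulated counts for this comparison, edgeR recovered 100% of 200 genes changed 4-fold among 18340 tested, with 1 false call, and called 0 when nothing was changed. The changed genes were drawn from those with a control mean of at least 1 CPM, and all genes had the same dispersion of 0.0066. Recovery of lower genes, such as *Cxcl1*, *Cxcl2*, *Cxcl3*, *Cxcl5* and *Cxcl10*, was therefore not tested.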

Additional observations from a re-analysis of the deposited data

How the results depend on the processing

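*Cxcl2*, *Cxcl3*, *Cxcl12* and *Cxcl13* kept their direction in every alternative that tested them. The 2 genes called higher became 0 with 10 or more counts required in each sample, where 5 of the 10 genes were tested and neither *Cxcl2* nor *Cxcl3* was among them, and 1 (*Cxcl3*) with limma on log2(FPKM + 1), on log2(FPKM + 0.1) and on log2(FPKM + 1) without filter. In the 2 filtered limma fits *Cxcl2* was below the FPKM minimum and was not tested. On log2(FPKM + 1) without filter *Cxcl2* had a log2 fold change of 0.41, since the pseudocount shrinks low genes by construction. *Cxcl3* had 1.09 on log2(FPKM + 1) with and without filter and 3.42 on log2(FPKM + 0.1). The 2 genes called lower became 1 (*Cxcl12*) with 10 or more counts required in each sample. With each replicate left out in turn, 2 to 3 of the 10 genes were called higher, *Cxcl1* being the third, and 2 to 3 lower, *Cxcl10* being the third. *Cxcl14* reversed to 0.15 without both LiCl replicates 1 and 3. Of the other chemokine and receptor genes, the 2 called higher became 1 (*Pf4*) with 10 or more counts required in each sample, without both LiCl replicates 1 and 3, and on log2(FPKM + 1) with and without filter, and were 2 to 3 with each replicate left out. The 4 called lower became 1 with that count minimum, 0 on log2(FPKM + 1) with and without filter and 2 on log2(FPKM + 0.1), and were 2 to 5 with each replicate left out, with 2 without control replicate 3. Apart from the filters and the pseudocount, the cause was not tested. Over all tested genes, the residuals of samples that share a replicate number correlated at 0.03, -0.09 and 0.10. Such values cannot decide whether the numbers pair the samples. The summed endothelial and macrophage markers rose from replicate 1 to replicate 3 in both groups, while other lists, such as the skeletal muscle markers, did not. With the replicate number as a block, 2 of the 10 genes were called higher and 2 lower, and 2 and 3 of the other chemokine and receptor genes. Over all alternatives, 131 log2 fold changes of the tested genes kept their direction and their call or lack of one, 1 reversed (*Cxcl14*), 1 gained its call (*Cxcl10*) and 1 lost it (*Cxcl2*). With each replicate left out, 1 to 2 macrophage, 1 to 2 epithelial and 1 to 2 ureteric mesenchyme markers were called lower. Depth limits *Cxcl1*, *Cxcl2*, *Cxcl5* and *Cxcl10*, the controls of *Cxcl3* and the LiCl samples of *Cxcl13*, each below 30 counts per sample.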

Other observations

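Some chemokine genes outside the naming rule, chosen after their values were seen, had low counts. *Ccl20*, an epithelial ligand gene, had 48 counts in control replicate 1, 1 and 4 in the other controls and 0 in each LiCl sample, which allows up to 3 counts per sample. *Ccr2*, the receptor gene of monocytes, had 12, 10 and 14 counts in the control samples and 0, 1 and 0 with LiCl. *Ccr3*, an eosinophil receptor gene, had 2, 2 and 4 counts in the control samples and 10, 10 and 13 with LiCl. None of these 3 genes passed the filter on low counts. Tested without the filter by edgeR's quasi-likelihood test, *Ccr3* was called higher and *Ccl20* and *Ccr2* lower. The neutrophil granule genes *Ltf* and *Ngp* had 6 and 2 counts in control replicate 1, 12 and 10 counts in LiCl replicate 2, and 0 in the other 4 samples. The acute phase gene *Saa3*, of the NF-kB list, had 57 counts in control replicate 2, the sample with high interferon-stimulated genes, against 2 and 1 in the other controls and 14 to 20 with LiCl.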
